A study of Mus musculus with 6 samples.

Results

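The 9 genes described here encode proteins of the mitochondrial and death receptor routes to apoptosis: *Bcl2*, *Bcl2l1* and *Mcl1*, which protect cells, *Bax* and *Bak1*, which form pores in the outer mitochondrial membrane, the BH3-only genes *Bid* and *Bcl2l11*, and the death receptor *Fas* with its initiator caspase *Casp8*. They were chosen by name, with earlier results of these data known, and all 9 were found among the 23997 gene symbols of the files. None of them is an executioner caspase. Gastrocnemius, the large calf muscle, of 3 HrasG12V and 3 wild-type (WT) mice, all 21 days old and untreated, was sequenced in 1 library per mouse. HrasG12V mice 2276, 2278 and 2279 were Caggs-Cre+/HrasG12V/+, heterozygous for an activating *Hras* allele expressed from its own promoter, and model Costello syndrome. WT mice 2277, 2280 and 2281 were littermates of the genotype Caggs-Cre-/HrasflG12V/+, so they carried the same floxed allele without the Cre that switches it on. The Cre was driven by the broadly active Caggs promoter, which places the mutant allele in the cells of all tissues and not in muscle fibers alone, and all mice were of a mixed SWR/J, 129S1/SvImJ and C57BL/6J background.

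Apoptosis through mitochondria is held in check by the BCL2, BCL-XL (encoded by *Bcl2l1*) and MCL1 proteins, which bind the pore formers BAX and BAK and the BH3-only proteins BID and BIM (encoded by *Bcl2l11*). When BH3-only proteins prevail, BAX and BAK open the outer membrane, cytochrome c is released, and APAF1 and caspase 9 switch on the executioner caspases. The receptor FAS recruits FADD and caspase 8 instead, and caspase 8 can cleave BID and so join both routes. Muscle fibers are long-lived, and whole muscle also holds satellite cells, endothelium, fibroblasts and blood-derived cells, all of which add their RNA to the values below.

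The 7 BCL2 proteins share a BH3 helix, whose core is a leucine followed, after 3 free residues, by a glycine and an aspartate. That core was present once in each of the 7 proteins translated from the longest complete coding sequence in GENCODE vM21 (GRCm38), and was absent from the *Fas* and *Casp8* sequences. It is not rare, since 13.3% of 21524 protein-coding genes hold it. The coding bases of the core are shown because the residue pattern they encode is shared by the 7 proteins though the bases differ, with the 6 codons of the core in capitals, 3 codons before them and 1 after.
Bcl2: catctgaccCTCCGCCGGGCTGGGGATgac
Bcl2l1: aagcaagcgCTGAGAGAGGCAGGCGATgag
Mcl1: ctggagaccCTGCGGCGCGTGGGCGACggc
Bax: agcgagtgtCTCCGGCGAATTGGAGATgaa
Bak1: ggtcggcagCTTGCTCTCATCGGAGATgat
Bid: gccagacatCTCGCCCAAATAGGCGATgag
Bcl2l11: gcacaggagCTGCGGCGGATCGGAGACgag
The core lies at residues 94 to 99 of the 236 of BCL2, at 90 to 95 of the 233 encoded by *Bcl2l1*, at 194 to 199 of the 331 of MCL1, at 63 to 68 of the 192 of BAX at 76 to 81 of the 209 of BAK, at 150 to 155 of the 196 of BIM and at 90 to 95 of the 195 of BID. Of the 18 bases in capitals, *Bax* shared 14 with *Bcl2l11*, 13 with *Bcl2* and 8 with *Bcl2l1*.

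The values are FPKM, a level corrected for transcript length and library size, as the authors deposited them after Cuffnorm had scaled the libraries to each other. Read counts were not recovered from them, so the spread between mice is the only measure of error. The study states 1 nominal sequencing depth for all samples, not the reads of each library. Of the muscle markers, *Ttn* was at 151 to 239 FPKM and *Mb* at 516 to 3015 FPKM in all 6 libraries, while *Acta1* and *Myh4* were listed at 0 in all 6, which in muscle can be a failed estimate. These zeros differed between libraries: *Ckm* was listed at 0 in 5 of them and at 7165 FPKM in mouse 2278, and *Myh1* at 0 in WT mice 2277 and 2280 and at 297 to 1185 FPKM in the other 4. *Hras* was at 36.0 to 51.8 FPKM in WT and 58.8, 28.9 and 16.0 FPKM in HrasG12V mice 2276, 2278 and 2279, which sums both alleles and does not show the mutation itself. Mouse 2276 had an FPKM sum of 814013, against 413020 to 547122 in the other 5 libraries. It was above the other 5 mice in 35.5% of all genes tested and below them in 29.2%. The libraries of mice 2278 and 2279 stood apart in another way. The 6 B cell markers summed to 81.9 and 65.7 FPKM there against 0.655 to 1.37 FPKM in the other 4 mice, the 6 T cell markers to 32.7 and 41.3 against 0.684 to 1.14 FPKM, and all 12 were higher in both than in any other mouse. The 5 neutrophil markers summed to 130 and 50.8 FPKM in mice 2278 and 2279, to 19.7 in mouse 2276 and to 0.716 to 3.57 in WT mice. Mouse 2276 was closer to each WT mouse (Pearson's r of 0.893 to 0.903 over 13359 genes) than to mouse 2278 or 2279 (0.844 and 0.852). The members' values that turn on these libraries are also given without them, a comparison chosen after the data were seen that rests on mouse 2276 against 3 WT mice, assumes that this mouse varies like the WT mice, and puts 4200 of the 13359 genes past an adjusted p of 0.05.

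FPKM is a level per length of transcript, so the 9 genes can be ordered by it. In WT muscle *Mcl1* was the most abundant, at 76.4 ± 5.31 FPKM (SD, n = 3), above 93.4% of the 13359 genes tested. *Bcl2l1* followed at 17.6 ± 0.910 FPKM, *Bak1* at 16.0 ± 0.296, *Bax* at 11.2 ± 0.854 and *Fas* at 7.94 ± 0.628 FPKM. The lower group was made of *Bcl2l11* at 2.81 ± 0.208 FPKM, *Casp8* at 2.68 ± 0.431, *Bcl2* at 1.28 ± 0.0526 and *Bid* at 0.588 ± 0.148 FPKM, the last above only 5.12% of the genes tested. Neighbours in this order did not overlap between the 3 WT mice except *Bcl2l11* and *Casp8*, whose ranges were 2.63 to 3.04 and 2.40 to 3.18 FPKM. *Bcl2*, the gene that gives the family its name, was thus the least abundant of its 3 protective members. In HrasG12V muscle *Mcl1* remained first at 78.2 ± 15.0 FPKM and *Bid* last at 1.44 ± 0.683 FPKM, but the mice spread so far that only *Mcl1* from *Bak1* and *Bcl2l1* from *Fas* were neighbours without overlap.

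**Figure D1:**
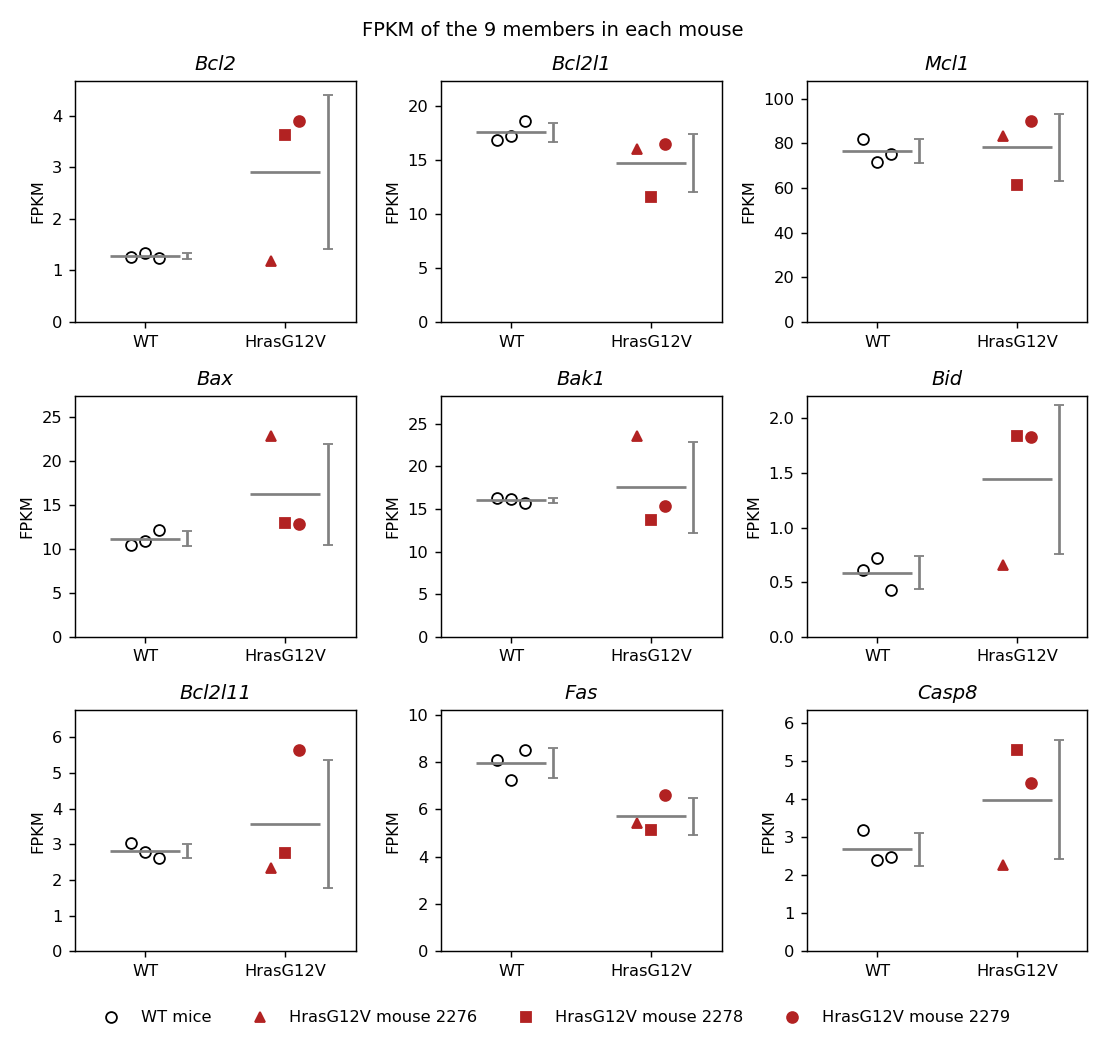
FPKM of each of the 9 genes (vertical axes, from 0) in 3 WT mice (open circles) and HrasG12V mice 2276, 2278 and 2279 (filled triangle, square and circle), with the group mean as a line and its SD as a bar beside it. For Bcl2, Bid and Casp8 mice 2278 and 2279 lie above the other 4 mice, and for Fas all 3 HrasG12V mice lie below all WT mice.

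The comparison of genotypes asks whether the transcripts of this machinery differ in muscle with the active allele. Fold changes are of FPKM + 0.1 on a log2 scale, which makes those of low genes too small, and were tested with limma over 13359 genes with a mean of at least 0.5 FPKM, among them all 9 members. With an unadjusted p below 0.05, 1 of the 9 differed (*Fas*, lower), beside 10.2% of all genes tested, and 0 of the 9 had a limma adjusted p below 0.05, beside 0.0599% of all genes. The members' share past the unadjusted limit was therefore close to the background. In 3 of the 9 (*Bax*, *Fas*, *Bcl2l1*) the genotypes did not overlap, beside 18.5% of all genes tested. *Bax* was higher, as were 8.11% of all genes without overlap, and *Fas* and *Bcl2l1* were lower, as were 10.4%. The median log2 fold change of the 9 was 0.23, and it was -0.03 over all genes tested. None reached both an unadjusted p below 0.05 and the fold limit of 1.5, which 7.13% of all genes did.

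**Figure D2:**
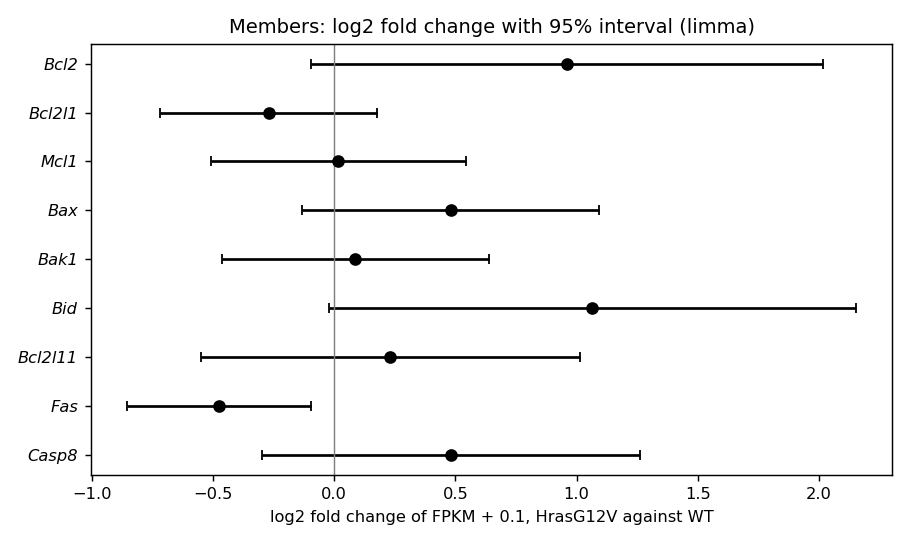
Log2 fold change of FPKM + 0.1, HrasG12V against WT (horizontal axis), for the 9 genes, with the 95% interval from limma (n = 3 mice per genotype). The interval of Fas, -0.85 to -0.10, is the only one of the 9 that does not include 0.

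*Fas*, which encodes the death receptor CD95, was at 5.43, 5.10 and 6.59 FPKM in HrasG12V mice 2276, 2278 and 2279 and at 8.09, 7.25 and 8.48 FPKM in the WT littermates 2277, 2280 and 2281. All 3 HrasG12V mice were below all 3 WT mice. The log2 fold change was -0.48 (standard error 0.16, 95% interval -0.85 to -0.10, limma p = 0.0212, limma adjusted p = 0.446, exact permutation p = 0.1). The permutation p, two-sided here and below, is the smallest that 3 against 3 mice allow. The unadjusted limma p was 0.0599 without mouse 2278, 0.0766 without WT mouse 2277, 0.0839 without WT mouse 2281 and 0.193 after scaling all libraries to 1 common FPKM sum. The 4 endothelial markers moved with *Fas*: they summed to 104 to 117 FPKM in HrasG12V and 137 to 163 FPKM in WT mice, with *Cdh5* and *Tie1* not overlapping between genotypes, and the muscle marker *Ttn* was also lower in all of them, at 152.9, 151 and 175.9 FPKM in HrasG12V mice 2276, 2278 and 2279 and 193.1 to 239 FPKM in WT mice. Their part in the *Fas* value was not tested. In whole muscle, fewer cells of a type and less RNA per cell cannot be told apart. *Fas* lies on chromosome 19 of GRCm38 from 34290666 to 34327772, plus strand, and no exon of another gene overlaps it in GENCODE vM21.

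*Casp8* and *Bid*, which act below the receptor, did not follow *Fas*. *Casp8*, the initiator caspase, was at 2.26, 5.28 and 4.42 FPKM in HrasG12V mice 2276, 2278 and 2279 and at 3.18, 2.40 and 2.46 FPKM in the WT littermates 2277, 2280 and 2281. Mouse 2276 was the lowest of all 6 and mice 2278 and 2279 were the highest, so the genotypes overlapped (log2 fold change 0.48, 95% interval -0.30 to 1.26, limma adjusted p = 0.666). *Bid*, the BH3-only substrate of caspase 8, was at 0.655, 1.84 and 1.83 FPKM in the HrasG12V mice and at 0.614, 0.721 and 0.428 FPKM in the WT mice. Here too mice 2278 and 2279 were above the other 4 mice and mouse 2276 was within the WT range. Its log2 fold change of 1.06 was the highest of the 9 (standard error 0.45, 95% interval -0.02 to 2.15, limma p = 0.0538, limma adjusted p = 0.497, exact permutation p = 0.2). Exons of *Bid* overlap those of *Bcl2l13* on the opposite strand. The library kit kept strand, but the strand setting of the counting is not given in the sources used here, so reads of the overlap may have been assigned to either gene. *Bcl2l13* was at 22.8 to 26.1 FPKM in WT and at 23.6, 17.9 and 19.2 FPKM in the HrasG12V mice, lower in the mice in which *Bid* was higher.

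*Bcl2* was at 1.19, 3.63 and 3.89 FPKM in HrasG12V mice 2276, 2278 and 2279 and at 1.26, 1.34 and 1.24 FPKM in the WT littermates 2277, 2280 and 2281. The WT mice were close to each other and mouse 2276 was just below them, while mice 2278 and 2279 were far above. The log2 fold change was 0.96 (standard error 0.44, 95% interval -0.10 to 2.02, limma p = 0.0682, limma adjusted p = 0.527, exact permutation p = 0.4). Exons of *Bcl2* overlap an annotated antisense gene, for which no values were given. *Bcl2*, *Bid* and *Casp8* were thus 3 members that were higher in mice 2278 and 2279 than in all 4 other mice, a pattern that 14.9% of all genes tested had. Without mouse 2276 their log2 fold changes were 1.49, 1.52 and 0.84, and the limma adjusted p-values 0.0045, 0.027 and 0.048, in a comparison in which 1291 of all genes tested passed. Against the WT mean, mouse 2276 differed by -0.09 (*Bcl2*), 0.16 (*Bid*) and -0.23 (*Casp8*) on the log2 scale. Mice 2278 and 2279 differed by 1.44 and 1.54, by 1.52 and 1.51, and by 0.96 and 0.71. The same mice carried the B and T cell markers, whose median differences from the WT mean were 4.76 to 5.61 on the log2 scale there and -0.11 and 0.35 in mouse 2276. With the mean of these markers as a covariate, a setting chosen after the data were seen in which the genotype difference rests mainly on mouse 2276, the log2 fold changes of *Bcl2*, *Bid* and *Casp8* were -0.12, 0.12 and -0.25 (limma adjusted p of 0.592, 0.801 and 0.431). Without mice 2278 and 2279 they were -0.09, 0.16 and -0.23 (limma adjusted p of 0.623, 0.715 and 0.467). The fat cell and cycling cell markers were also highest in these mice, at sums of 71.4 and 58.7 against 4.79 to 25.3 FPKM and of 8.40 and 2.60 against 0.423 to 1.20 FPKM, and their part in the result was not tested.

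**Figure D3:**
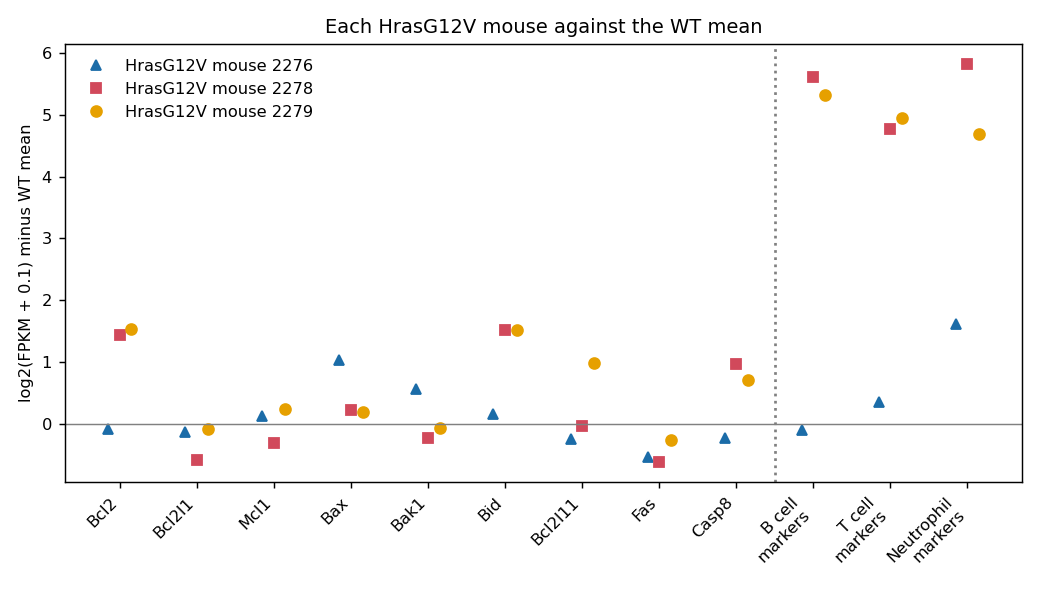
Difference of log2(FPKM + 0.1) from the WT mean (vertical axis) in HrasG12V mice 2276 (triangles), 2278 (squares) and 2279 (circles), for the 9 genes and, right of the dotted line, for the median of 6 B cell, 6 T cell and 5 neutrophil markers. In mouse 2276 Bax and Bak1 stand above 0 at 1.03 and 0.56, and Bcl2, Bid and Casp8 stand between -0.23 and 0.16.

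The other protective members did not share the pattern of *Bcl2*. *Bcl2l1*, which encodes BCL-XL, was at 16.0, 11.6 and 16.5 FPKM in HrasG12V mice 2276, 2278 and 2279 and at 16.9, 17.2 and 18.6 FPKM in the WT littermates 2277, 2280 and 2281. All HrasG12V mice were below all WT mice, but mice 2276 and 2279 only narrowly. The log2 fold change was -0.27 (standard error 0.19, 95% interval -0.72 to 0.18, limma adjusted p = 0.67), and it was -0.11 without mouse 2278. *Mcl1*, which encodes a short-lived protein, was at 83.4, 61.3 and 89.9 FPKM in the HrasG12V mice and at 82.1, 71.7 and 75.4 FPKM in the WT mice. The lowest and the highest value were both of HrasG12V mice, and the log2 fold change was 0.02 with a 95% interval of -0.51 to 0.54 (limma adjusted p = 0.991).

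*Bax* was at 22.8, 13.0 and 12.8 FPKM in HrasG12V mice 2276, 2278 and 2279 and at 10.5, 10.9 and 12.1 FPKM in the WT littermates 2277, 2280 and 2281. In the FPKM as deposited, all HrasG12V mice were above all WT mice. Mouse 2276, whose library had the highest FPKM sum, was so by far, and mice 2278 and 2279 by less than 1 FPKM over the highest WT mouse. The log2 fold change was 0.48 (standard error 0.26, 95% interval -0.13 to 1.09, limma p = 0.105, limma adjusted p = 0.576, exact permutation p = 0.1) and 0.21 without mouse 2276. It was 1.03 without mice 2278 and 2279 (limma adjusted p = 0.0194) and 1.05 with the B and T cell covariate (limma adjusted p = 0.0113), both of which rest on mouse 2276. With all libraries scaled to 1 common FPKM sum the log2 fold change of *Bax* was 0.47, and with quantile normalization it was 0.49. Both settings used all mice, and in both *Bax* was past the unadjusted limit but not past the adjusted limit. *Bak1*, the other pore former, was at 23.6, 13.7 and 15.3 FPKM in the HrasG12V mice and at 16.3, 16.1 and 15.7 FPKM in the WT mice. It too was highest in mouse 2276, but mice 2278 and 2279 were below all WT mice, and the log2 fold change was 0.09 (95% interval -0.46 to 0.64, limma adjusted p = 0.934) and -0.15 without mouse 2276. It was 0.56 without mice 2278 and 2279 (limma adjusted p = 0.021) and 0.57 with the covariate (limma adjusted p = 0.0327). Mouse 2276 was above the other 5 mice in 35.5% of all genes tested, so *Bax* and *Bak1* were 2 of many. Exons of *Bak1* overlap *Ggnbp1* on the opposite strand, which was at 16.6 FPKM in mouse 2276 and 5.71 to 9.90 FPKM in the other mice. Those of *Bax* overlap the annotated gene *Gm45808* on the same strand, for which no values were given.

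*Bcl2l11*, which encodes BIM, was at 2.34, 2.74 and 5.63 FPKM in HrasG12V mice 2276, 2278 and 2279 and at 3.04, 2.78 and 2.63 FPKM in the WT littermates 2277, 2280 and 2281. Mouse 2279 alone was high and mouse 2276 was the lowest. The log2 fold change was 0.23 (95% interval -0.55 to 1.01, limma adjusted p = 0.859) and -0.14 without mouse 2279.

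Ratios between members of the same library do not depend on the scaling between libraries, and they are given as a description. The ratio of *Bax* to *Bcl2* was 8.15 to 9.77 in WT mice, 19.1 in mouse 2276 and 3.57 and 3.28 in mice 2278 and 2279, so the HrasG12V mice lay on both sides of the WT mice. The ratio of *Bax* to *Bcl2l1* was 0.621 to 0.652 in WT mice and 1.43, 1.12 and 0.775 in HrasG12V mice 2276, 2278 and 2279, without overlap, which the values of both genes already fix. The ratio of *Mcl1* to *Bcl2l1* was 4.06 to 4.88 in WT mice and 5.20 to 5.46 in the HrasG12V mice, also without overlap. That of *Bak1* to *Mcl1* was 0.198 to 0.225 in WT mice and 0.171 to 0.283 in HrasG12V mice, and that of *Bcl2l11* to *Bcl2l1* was 0.142 to 0.180 and 0.146 to 0.342. That of *Bcl2l1* to *Bcl2* was 12.9 to 15.0 in WT mice, 13.4 in mouse 2276 and 3.19 and 4.23 in mice 2278 and 2279.

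The 250 bases before the start of transcription are shown for the member past the unadjusted limit, for *Bax*, which was higher in all HrasG12V mice, and for *Bcl2*, which was high in mice 2278 and 2279 (RefSeq, GRCm38.p6). That of *Bid* is not shown because it overlaps an annotated exon of the gene, nor that of *Casp8*, which lies at an internal start of the gene. Capitals mark the GC box GGGCGG, the CCAAT box CCAAT and the TATA box TATAAA on either strand, none of which overlaps another here.
Fas (chr19:34290409-34290658, plus strand): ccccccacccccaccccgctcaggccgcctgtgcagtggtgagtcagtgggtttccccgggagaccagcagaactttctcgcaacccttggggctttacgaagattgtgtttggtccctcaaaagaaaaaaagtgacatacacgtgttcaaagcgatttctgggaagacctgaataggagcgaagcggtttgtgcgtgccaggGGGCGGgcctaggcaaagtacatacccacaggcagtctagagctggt
Bax (chr7:45466899-45467148, minus strand): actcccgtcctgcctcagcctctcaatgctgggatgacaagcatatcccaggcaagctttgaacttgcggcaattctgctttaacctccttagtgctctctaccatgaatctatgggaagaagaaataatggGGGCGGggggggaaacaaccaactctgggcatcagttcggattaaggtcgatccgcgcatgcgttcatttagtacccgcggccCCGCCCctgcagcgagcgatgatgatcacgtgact
Bcl2 (chr1:106714291-106714540, minus strand): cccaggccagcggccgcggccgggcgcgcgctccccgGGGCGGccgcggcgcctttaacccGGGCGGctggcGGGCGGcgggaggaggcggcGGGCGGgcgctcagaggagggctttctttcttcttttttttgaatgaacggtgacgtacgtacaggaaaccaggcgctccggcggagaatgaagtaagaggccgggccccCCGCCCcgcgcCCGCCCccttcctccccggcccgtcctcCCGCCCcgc
*Bcl2* held 7 GC boxes and 36 CpG in a window of 74.8% G and C, *Bax* 2 GC boxes and 14 CpG, and *Fas* 1 GC box and 11 CpG. None of the 3 windows held a CCAAT or TATA box. Over 32851 promoter windows 32.7% held a GC box, 33.8% a CCAAT box and 12.4% a TATA box, and the median was 6 CpG.

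Among 12177 other genes with a mean of at least 1 FPKM, those closest in pattern to *Fas* over the 6 libraries included *Gse1* and *Phtf2*, with Pearson's r of 0.998 and 0.996. *Phtf2* was at 58.3 to 69.5 FPKM in WT and at 39.9, 38.6 and 52.7 FPKM in HrasG12V mice 2276, 2278 and 2279. Those closest to *Bid* were *Lcp2*, *Id2* and *Uba7*, with r of 0.997, 0.996 and 0.995. *Lcp2*, which encodes the adaptor SLP-76 of T cell receptor signaling, was at 0.221 to 0.524 FPKM in WT mice, 0.404 FPKM for mouse 2276 and 2.71 and 3.04 for mice 2278 and 2279. With 6 libraries such values are common, since 307 genes had r above 0.9 with *Fas* and 549 with *Bid*.

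The rest of the apoptosis pathway was described with 47 further genes, of which 39 were tested. Their lists were chosen with earlier results of these data known, so the shares beside all genes are only a description. With an unadjusted limma p below 0.05, 7 of the 39 were higher in HrasG12V muscle and 0 lower, that is 17.9% beside 5.18% higher and 4.99% lower among all genes tested, and 0 of the 39 had a limma adjusted p below 0.05. Among the 7 were *Bcl2a1b*, *Bok*, *Bbc3*, *Tnfrsf1a*, *Traf2* and *Tradd*. Of these, *Bcl2a1b* reached the limit for testing only through its HrasG12V values. The genotypes did not overlap in 8 of the 39, all higher in HrasG12V mice. Of all genes tested 18.5% did not overlap, with 8.11% higher and 10.4% lower. The median of all 39 was 0.10, with 23 of them above 0. The count of 7 was 19 without mouse 2276, 3 without any 1 of the WT mice, 4 without mouse 2278 and 2 after scaling all libraries to 1 common FPKM sum.

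**Figure D4:**
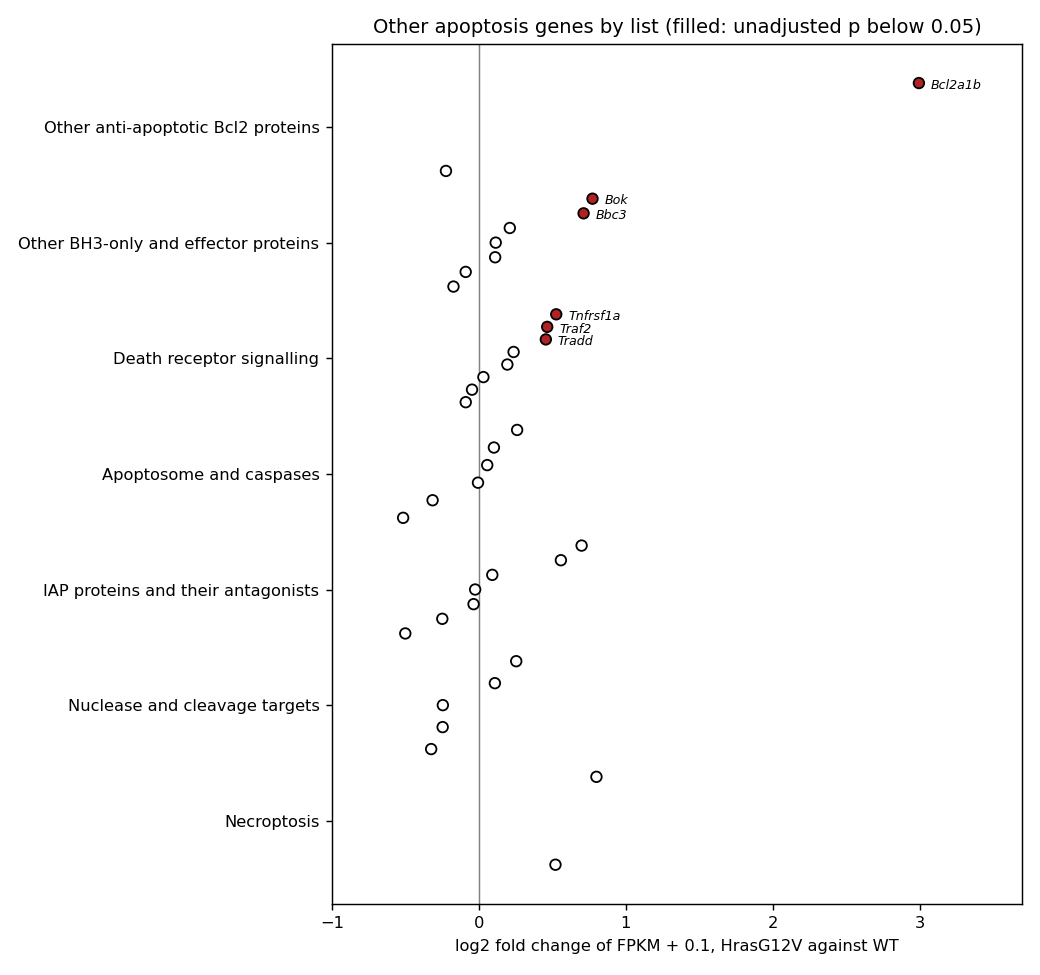
Log2 fold change of FPKM + 0.1, HrasG12V against WT (horizontal axis), of the tested genes reported here from 7 apoptosis lists (rows), with the genes of unadjusted limma p below 0.05 filled and named. The filled points lie between 0.46 and 2.99, the latter for Bcl2a1b, whose size depends on the pseudocount, and the other points lie on both sides of 0.

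Among the death receptor genes, 3 of the 8 tested were higher with an unadjusted p below 0.05, beside 5.18% of all genes tested. *Tnfrsf1a*, a receptor for TNF, was at 29.2, 25.3 and 25.0 FPKM in HrasG12V mice 2276, 2278 and 2279 and at 18.0, 19.9 and 17.3 FPKM in the WT littermates 2277, 2280 and 2281, and the log2 fold change was 0.53 (standard error 0.16, limma p = 0.0137, limma adjusted p = 0.423, exact permutation p = 0.1). Its adaptors *Traf2* and *Tradd* were at 9.48, 8.39 and 6.41 FPKM against 5.50 to 6.08, and at 3.35, 2.71 and 2.40 FPKM against 1.95 to 2.08, with log2 fold changes of 0.46 and 0.46 (limma adjusted p of 0.481 and 0.481). Without mouse 2278 the unadjusted limma p was 0.0986 for *Traf2* and 0.0693 for *Tradd*, without mouse 2276 it was 0.0641 for *Traf2*, and without a WT mouse it was 0.0788 to 0.122 and 0.0943 to 0.125. After scaling all libraries to 1 common FPKM sum the unadjusted limma p was 0.0855 for *Tnfrsf1a*, 0.113 for *Traf2* and 0.163 for *Tradd*. That of *Tradd* was 0.203 with quantile normalization. All 3 genes were highest in mouse 2276. The FAS ligand gene *Fasl*, at 0.0883 FPKM or less in every library, was below the limit for testing. *Cflar*, which encodes the caspase 8 inhibitor c-FLIP, was the lowest of the tested genes of the list at -0.09 (limma adjusted p = 0.936). *Fas* (-0.48) and *Tnfrsf1a* (0.53), both receptors with a death domain, thus stood on opposite sides of the WT mice.

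Among the other BH3-only and effector genes, 2 of the 7 tested passed the unadjusted limit, both higher, beside 5.18% of all genes tested. *Bok*, an effector of the BAX type, was at 3.25, 2.77 and 2.68 FPKM in HrasG12V mice 2276, 2278 and 2279 and at 1.75, 1.73 and 1.48 FPKM in the WT littermates 2277, 2280 and 2281, and the log2 fold change was 0.77 (standard error 0.17, limma p = 0.00324, limma adjusted p = 0.349, exact permutation p = 0.1). *Bbc3*, which encodes PUMA, was at 1.52, 1.56 and 2.50 FPKM against 1.10, 1.21 and 0.916 FPKM, and the log2 fold change was 0.71 (standard error 0.27, limma p = 0.0339, limma adjusted p = 0.477, exact permutation p = 0.1). The unadjusted limma p of *Bbc3* was 0.186 after scaling all libraries to 1 common FPKM sum and 0.067 with quantile normalization. Its unadjusted p was 0.0698 without mouse 2279 and 0.0533 to 0.104 without a WT mouse, and it was 0.0882 without mice 2278 and 2279 (log2 fold change 0.47), while that of *Bok* stayed past the limit in every setting tried. Both genes stand in the list of increased transcripts in the study's supplement, which was selected on these same libraries, so they are not independent evidence of a direction. *Bnip3* was the lowest of the list at -0.17 (limma adjusted p = 0.939). *Pmaip1*, which encodes NOXA and was not tested for its low level, was at 0.873 and 1.07 FPKM in mice 2278 and 2279 and at 0.0295 to 0.123 FPKM in the other 4.

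In the apoptosome and caspase list, the executioner *Casp6* had a log2 fold change of 0.06 (limma adjusted p = 0.948). *Cycs*, which encodes cytochrome c, was the lowest of the list at -0.52 (limma adjusted p = 0.733), with 361 FPKM for mouse 2276, 184 and 109 for mice 2278 and 2279 and 263 to 288 FPKM in WT mice. The unadjusted limma p of *Cycs* was 0.284, and 0.056 after scaling all libraries to 1 common FPKM sum (log2 fold change -0.53). *Apaf1* measured 0.560 FPKM for mouse 2276 and 2.11 and 2.05 for mice 2278 and 2279, below and above the WT range of 1.10 to 1.65 FPKM.

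Of the 2 tested genes in the list of other protective members, *Bcl2a1b* was listed at 0 in WT mice 2277 and 2281, at 0.274 FPKM in WT mouse 2280, and at 0.425, 1.89 and 1.71 FPKM in HrasG12V mice 2276, 2278 and 2279 (limma p = 0.0104, limma adjusted p = 0.398, exact permutation p = 0.1). Its mean was 0.0914 FPKM in WT and 1.34 FPKM in HrasG12V mice. It thus reached the 0.5 FPKM limit for testing only through the HrasG12V mice. Its log2 fold change of 2.99 was 1.76 without mice 2278 and 2279 and 1.70 with the covariate, where the unadjusted limma p was 0.151 and 0.112. Because of the WT values at 0 its size depends on the pseudocount, and it was 5.20 with 0.01 FPKM and 1.04 with 1 FPKM added. The *Bcl2a1* genes, known from blood cells, are near-identical copies between which the counting could split reads, and *Bcl2a1a* and *Bcl2a1d* were also highest in mice 2278 and 2279. *Bcl2l2*, which encodes BCL-W, was at 14.7, 12.3 and 10.8 FPKM in HrasG12V mice 2276, 2278 and 2279 and 14.2 to 15.2 among the WT mice (log2 fold change -0.22, limma adjusted p = 0.7).

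None of the 7 tested genes of the inhibitors of apoptosis and their antagonists, of the 5 nuclease and cleavage targets and of the 2 necroptosis genes passed the unadjusted limit. Mouse 2276 was below the other 5 mice in 29.2% of all genes tested, among them *Xiap*. *Xiap*, which encodes an inhibitor of caspases, was at 4.90 FPKM in mouse 2276 and at 12.4 to 14.2 FPKM in the other 5 mice (log2 fold change -0.50, limma adjusted p = 0.717). It was -0.03 without mouse 2276, and -1.45 without mice 2278 and 2279 and -1.48 with the covariate (limma adjusted p of 0.0176 and 0.0108). *Birc5*, which encodes survivin, a protein of dividing cells, had the highest value of its list at 0.70 (limma adjusted p = 0.581). *Endog*, a mitochondrial nuclease, reached 44.7 FPKM for mouse 2276, 10.9 and 9.88 for mice 2278 and 2279 and 19.0 to 22.7 FPKM in WT mice, so that its mean of -0.33 hid HrasG12V mice on both sides of the WT mice (limma adjusted p = 0.889). *Dffb*, the caspase-activated DNase, was higher in all 3 HrasG12V mice by little, at 2.11 to 2.40 against 1.75 to 1.91 FPKM (0.25, limma adjusted p = 0.645). The kinase gene *Ripk3* was at 0.884, 2.25 and 1.58 FPKM in HrasG12V mice 2276, 2278 and 2279 and 0.621 to 0.982 among the WT mice (0.80, limma adjusted p = 0.539), and *Mlkl* had a log2 fold change of 0.52 (limma adjusted p = 0.653). Over the 39 tested genes 12 were higher in mice 2278 and 2279 than in the other 4 mice, 30.8% beside 14.9% of all genes tested, among them *Casp2*, *Casp9*, *Birc2* and *Birc3*.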

How the data were processed

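Gastrocnemius mRNA of 3 HrasG12V and 3 WT mice was measured in 1 stranded library per mouse. The authors mapped single-end reads with TopHat, and the deposited FPKM per gene symbol came from Cufflinks and Cuffnorm, which scales libraries to each other. The submitters' processing notes name GRCm38 and mm10, while tool versions and the gene annotation were not stated. Ratios of values below 0.2 FPKM between libraries did not fall into steps (at most 3.19% of genes in 1 interval of 0.01 log2 units), so no read counts were recovered, no count model was used and the reads of each library are unknown beyond 1 nominal depth that the study states for all. Genotypes came from the sample labels, whose mouse numbers pair no samples.

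Genes with a mean of at least 0.5 FPKM (13359) were compared as log2(FPKM + 0.1) with limma 3.58.1 in R 4.3.3 (trend, no covariate, two-sided), with Benjamini-Hochberg adjustment over all of them and limits of 0.05 and 1.5-fold. The labels give no sex, litter or sequencing run per mouse. The script was tested on simulated data. Members and lists were chosen with earlier results of these data known. Named are all members, list genes past the unadjusted limit, the highest and lowest of each list, *Hras*, and the 3 genes most like *Fas* and *Bid*, the members of lowest p. Genes named beyond these (*Fasl*, *Pmaip1*, *Apaf1*, *Casp2*, *Casp6*, *Casp9*, *Birc2*, *Birc3*, *Bcl2a1a*, *Bcl2a1d*, *Bcl2l13*, *Ggnbp1*) were chosen after their values were seen, as were the 6 ratios between members. Some genes that this rule names are not reported here. Of 6 macrophage markers 5 were found, and they summed to 37.9 to 43.9 FPKM in WT and 43.7 to 71.8 FPKM in HrasG12V mice. The 4 fibroblast markers summed to 1377 to 2882 and 628 to 2470 FPKM. Alternatives were other pseudocounts, filters, scalings, moderation, array weights and leaving out each mouse. Figures were made with matplotlib 3.10.9 in Python 3.11.15.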

Additional observations from a re-analysis of the deposited data

How the results depend on the processing

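Over the 16 alternatives listed at the outset the log2 fold changes of *Fas*, *Bid*, *Bcl2*, *Casp8*, *Bax* and *Bcl2l1* kept their sign, and the unadjusted p of *Fas* was below 0.05 in 12. No paired analysis was possible because the labels give the genotypes no shared replicate numbers. The reads behind each value are unknown, which limits what low genes such as *Bid* can show. Members past the unadjusted limit numbered 4 with array weights or quantile normalization, 2 with median centring, a pseudocount of 0.01 or robust moderation, and 0 to 4 without 1 mouse, where 0 was reached without WT mouse 2277 or 2281 or HrasG12V mouse 2278. Pathway genes past it numbered 16 with array weights, 2 with all libraries scaled to 1 common FPKM sum, and 3 to 19 without 1 mouse. All genes past it numbered 3042 with array weights, 712 after that scaling, and 606 to 3979 without 1 mouse. Those past the adjusted limit, 8 in all, numbered 572 with array weights, 1 without moderation, 5 with a pseudocount of 1, and 7 to 1291 without 1 mouse.

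With array weights *Bak1*, *Mcl1* and *Cflar* turned to -0.126, -0.0742 and 0.138. Without 1 mouse in turn, *Bak1* ranged from -0.146 to 0.245, *Mcl1* from -0.0934 to 0.182, *Bcl2l11* from -0.143 to 0.473, *Bnip3* from -0.64 to 0.286, *Cflar* from -0.296 to 0.156 and *Endog* from -1.02 to 0.0594. None of these 6 had an unadjusted p below 0.05 with all mice.

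Chosen after the data were seen, the B and T cell covariate and leaving out mice 2278 and 2279 rest largely or wholly on mouse 2276, which in the latter is assumed to vary like the WT mice. They gave 5521 and 6312 genes past the unadjusted limit, 3537 and 4200 past the adjusted limit, 3 and 3 members and 20 and 22 pathway genes. They turned *Bcl2* to -0.123 and -0.0906, *Casp8* to -0.25 and -0.228, *Bcl2l11* to -0.27 and -0.253, *Bcl2l2* to 0.0122 and 0.00622, *Cycs* to 0.413 and 0.384, and *Endog* to 1.11 and 1.07. *Bax*, *Bak1*, *Bok*, *Tnfrsf1a*, *Traf2*, *Tradd* and *Xiap* were among the genes past the adjusted limit in both. The causes were not tested.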
